A study of Mus musculus with 6 samples.

Results

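The genes described here are 10 regulators and targets of the transcription factors SRF and YAP, in mouse embryonic fibroblasts (MEFs) with and without the histone variant H2AX. They were taken by name from the array annotation, and all 10 of 10 had a probe set of their own among 19938 named genes. The set holds Srf and its coactivators Mrtfa (Mkl1) and Myocd, the Hippo kinase gene Lats2, the YAP inhibitor gene Amotl2, Yap1 and its DNA-binding partner Tead1, and the targets Ccn2 (Ctgf), Ccn1 (Cyr61) and Ankrd1. MEFs that were H2AX WT or H2A.X Knockout gave RNA for 6 Affymetrix microarrays, 3 for WT and 3 for knockout cells, with no treatment of either group. Both groups grew in DMEM with fetal bovine serum, glutamine and antibiotics. The sources used here do not give embryo age, sex, passage or cell density at harvest. The arrays of a genotype are described as independent replicates, without saying whether these are separate embryos, lines or dishes, and p-values measure the spread between them.

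As background, SRF binds a DNA element called the CArG box and works with alternative partners. With the myocardin family (MRTF-A, MRTF-B and myocardin), SRF transcribes cytoskeletal and contractile genes. MRTF-A and MRTF-B are released when monomeric actin is used up in filaments. With the ternary complex factors, which answer MAP kinase signalling, SRF transcribes immediate early genes. YAP and its paralog TAZ are coactivators that bind DNA through the TEAD factors. The Hippo kinases LATS1 and LATS2 phosphorylate them and hold them in the cytoplasm, angiomotins bind them there, and Lats2 and Amotl2 are themselves transcribed under YAP. In fibroblasts both systems respond to serum, spreading and a stiff substrate, and they share targets such as Ccn1, Ccn2 and Ankrd1.

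The transcript of the targeted gene, H2ax, was lower on every knockout array, at log2 values between 7.67 and 7.77 against 8.96 to 9.18 in WT cells (log2 fold change of knockout minus WT, or log2FC, -1.34, Benjamini-Hochberg adjusted p = 5.8e-07 with limma, written limma-adjusted p hereafter). Array medians lay between 6.06 and 6.12 on the log2 scale, and Pearson correlations over all probe sets were 0.993 or higher within a genotype and 0.974 or lower between genotypes. The mean log2 value of 11 fibroblast markers was 10.69 to 10.79 on WT arrays and 11.34 to 11.37 on knockout arrays. Of the 11, 6 were higher and 4 lower at a limma-adjusted p under 0.05, or 90.9% called. Beside this stand 33.4% of all genes and 53.1% of the 9969 genes with the higher mean, where all 11 markers lie. Among these markers the largest rises were in Thy1 (log2FC 4.03) and Pdgfrb (1.70), and the largest falls in S100a4 (-0.47) and Fn1 (-0.29). Vim, the intermediate filament gene of mesenchymal cells, lay at 13.21 and 13.14. Mean log2 values of endothelial, epithelial, leukocyte and striated muscle markers lay between 5.02 and 5.97 on all arrays. The Y-linked gene Eif2s3y lay between 8.03 and 8.12 on WT arrays and between 3.92 and 4.23 on knockout arrays, so the cultures differed in more than H2ax, and genotype and culture cannot be told apart in this design. In bulk RNA, fewer cells of a type and less RNA per cell cannot be told apart either.

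H2AX knockout MEFs held more transcript of Yap1, Amotl2, Ccn1, Lats2 and Srf and less of Ankrd1. Of the 10 genes, 5 were higher and 1 was lower at a limma-adjusted p under 0.05, where 18.4% of all genes were higher, 15.0% were lower and 33.4% were called in either direction. Among the 50% of genes with the higher mean, where 9 of the 10 genes lie, 53.1% were called, beside 6 of those 9 genes. Yap1 and Amotl2 also passed a fold-change of 2, and none of the 10 did downward, where 2.12% of all genes passed it upward, 3.18% downward and 5.30% in either direction. The 3 knockout arrays did not overlap the 3 WT arrays for 7 of the 10 genes, 6 higher and 1 lower, against 44.8% of all genes (25.3% higher and 19.5% lower). Shares for the fold-change and for overlap were not computed among the 50% of genes with the higher mean. The median log2FC was 0.33 over the 10 genes and 0.02 over all genes. With 3 arrays a genotype, exact permutation p-values stop at 0.10.

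**Figure D1:**
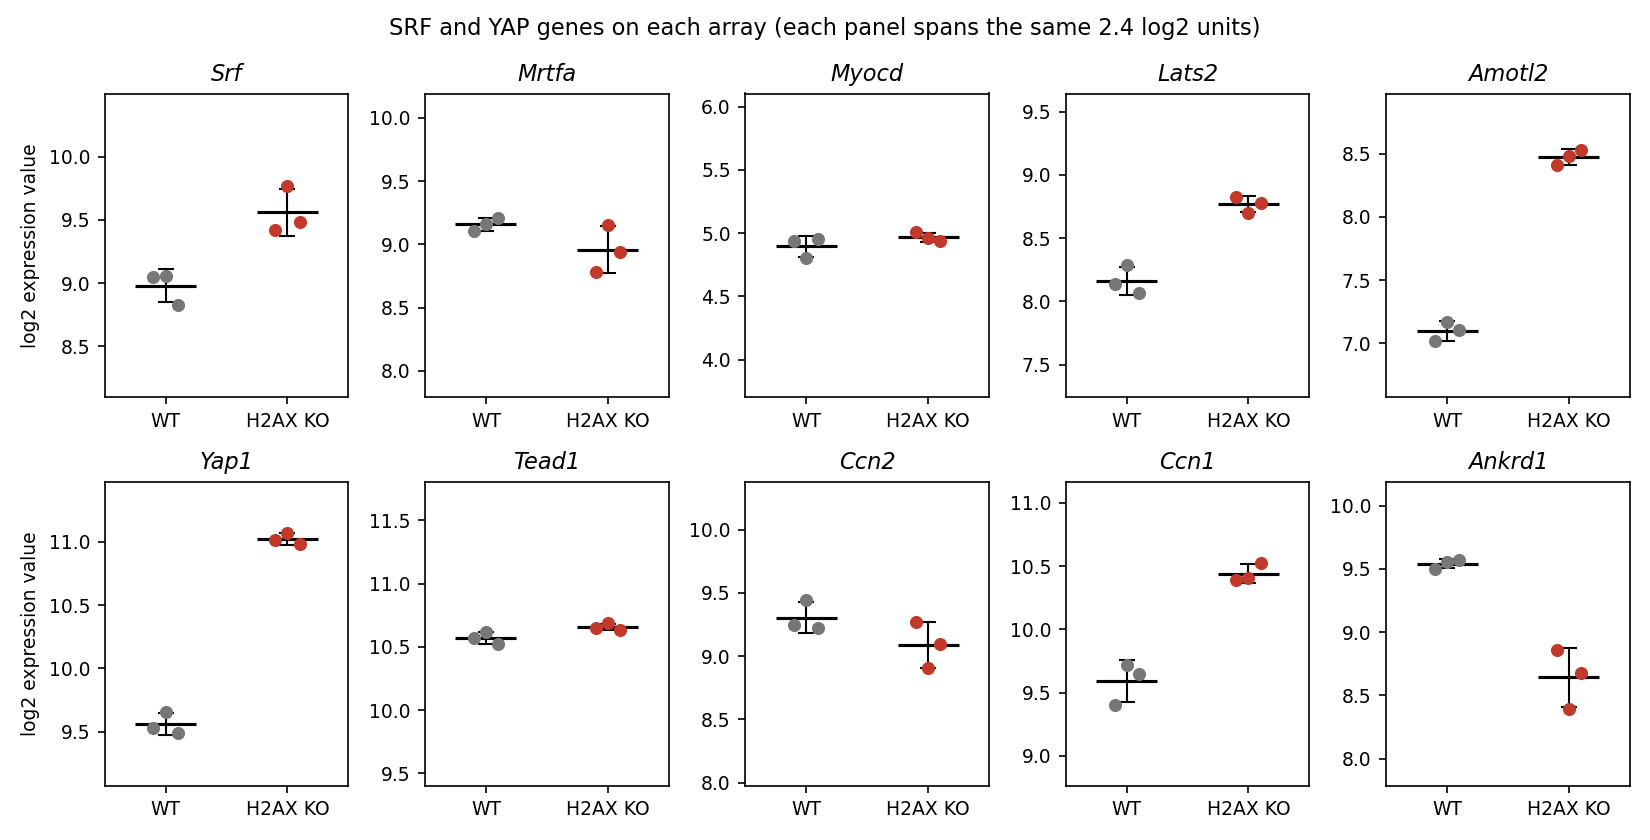
Log2 expression values (y axis) of the 10 genes on each of 3 WT (grey) and 3 H2AX KO (red) arrays, with the mean as a line and the SD as a bar. Every panel spans the same number of log2 units but is centred on its own gene, so changes and not levels can be compared between panels. Yap1 lies between 9.49 and 9.66 on WT arrays and between 10.98 and 11.07 on knockout arrays, whereas the ranges of Mrtfa, Myocd and Ccn2 overlap.

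Srf, which encodes serum response factor, was higher in knockout cells, while its coactivator genes of the myocardin family did not pass the test. Its log2 values were 9.05, 9.06 and 8.83 on WT arrays and 9.42, 9.77 and 9.48 on knockout arrays. Each knockout array lay above each WT array, and knockout replicate 2 was the highest. The means were 8.98 ± 0.13 (SD, n = 3) and 9.56 ± 0.19 (SD, n = 3), a log2FC of 0.58 (SE 0.10, limma-adjusted p = 0.0017) and a size of 1.49-fold. The 250 bases before the start site of Srf are shown because the gene is known to carry CArG boxes of its own. They are written 5′ to 3′ on the gene's strand, from the RefSeq promoter of build GRCm38.p6 at chr17:46556163-46556412 (minus strand), with matches to the CArG box in capitals.
Srf: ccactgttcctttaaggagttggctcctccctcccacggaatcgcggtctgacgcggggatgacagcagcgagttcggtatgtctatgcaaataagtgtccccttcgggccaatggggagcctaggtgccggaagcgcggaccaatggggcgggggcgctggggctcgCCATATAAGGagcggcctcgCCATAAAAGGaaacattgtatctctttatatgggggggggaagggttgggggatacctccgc
The 2 matches cover bases -82 to -73 and -62 to -53 from the start site. Among the 9 promoter windows of 300 bases that RefSeq gives for 7 of the genes, the Srf window was the only one with a CArG box, which 1.63% of all 32851 windows hold. Tead1, Myocd and Ccn2 have no window in the table.

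Mrtfa, the actin-regulated coactivator of SRF, had log2 values of 9.11, 9.16 and 9.21 on WT arrays and 8.78, 9.15 and 8.94 on knockout arrays. Knockout replicate 2 fell within the WT range and the other knockout arrays below it. The log2FC was -0.20 (95% interval -0.41 to 0.005, limma-adjusted p = 0.13), and without knockout replicate 2 it was -0.30 with an adjusted p of 0.011. Its paralog Mrtfb (Mkl2) had a log2FC of 0.22 (limma-adjusted p = 0.12). Myocd, the coactivator of cardiac and smooth muscle, had log2 values of 4.94, 4.80 and 4.95 in WT cells and 5.01, 4.96 and 4.94 in knockout cells. These values overlapped, and the mean lay at percentile 23.8 of all genes, low on the array scale, where changes are compressed. Its log2FC was 0.07 (95% interval -0.08 to 0.22, limma-adjusted p = 0.49).

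Yap1 had the largest change of the 10 genes. Its log2 values were 9.53, 9.66 and 9.49 on WT arrays and 11.01, 11.07 and 10.98 on knockout arrays. The genotypes did not overlap, and the gap between them was many times the spread within either. The means were 9.56 ± 0.09 (SD, n = 3) and 11.02 ± 0.05 (SD, n = 3), a log2FC of 1.46 (SE 0.07, limma-adjusted p = 1.5e-07) and a size of 2.75-fold. By the size of its change Yap1 ranked in the top 2.8% of all genes. Wwtr1, which encodes the paralog TAZ, went the other way, with a log2FC of -0.84 (SE 0.06, limma-adjusted p = 3.9e-06). The difference Yap1 minus Wwtr1 within an array was -0.27 ± 0.08 (SD, n = 3) in WT and 2.03 ± 0.10 (SD, n = 3) in knockout cells. The levels of 2 probe sets cannot be compared directly, so only the shift of this difference between genotypes, 2.30, is read here. The 2 ranges of this difference, -0.36 to -0.19 and 1.96 to 2.15, did not overlap (exact permutation test, two-sided, p = 0.10, the smallest this design allows, and adjusted p = 0.10 over the 6 gene pairs compared in this way).

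Tead1, the DNA-binding partner of YAP, scarcely differed. Its log2 values were 10.57, 10.62 and 10.52 on WT arrays and 10.65, 10.69 and 10.63 on knockout arrays. Each knockout value lay just above the WT values, with a log2FC of 0.09 (95% interval -0.05 to 0.22, limma-adjusted p = 0.33). A dimmer probe set of Tead1 overlapped between genotypes, at 10.03, 10.09 and 10.01 against 10.07, 10.04 and 10.11 (log2FC 0.03). The paralogs moved by small amounts in both directions, with Tead3 higher by 0.34 (limma-adjusted p = 0.039) and Tead2 and Tead4 at log2FC values of -0.33 (limma-adjusted p = 0.0041) and -0.26 (limma-adjusted p = 0.0083). Tead3 lost its call without any single WT array, without knockout replicate 2 or 3, and in 3 of the other alternatives.

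The inhibitors Lats2 and Amotl2 were both higher in knockout cells. Amotl2, an angiomotin that binds YAP and is also its target, had log2 values of 7.01, 7.17 and 7.11 on WT arrays and 8.41, 8.48 and 8.53 on knockout arrays. The genotypes were far apart, at 7.10 ± 0.08 (SD, n = 3) and 8.47 ± 0.06 (SD, n = 3), a log2FC of 1.38 (SE 0.07, limma-adjusted p = 2.4e-07) and a size of 2.60-fold. Its paralogs were lower, with Amot at a log2FC of -0.98 (limma-adjusted p = 1.7e-06) and Amotl1 at -0.28 (limma-adjusted p = 0.0091). Amotl2 minus Amot shifted by 2.36 between genotypes, without overlap (exact permutation test, p = 0.10). Lats2, a kinase that phosphorylates YAP, had log2 values of 8.14, 8.29 and 8.07 on WT arrays and 8.83, 8.70 and 8.78 on knockout arrays. All knockout values exceeded all WT values, with a log2FC of 0.60 (SE 0.07, limma-adjusted p = 0.00016). Lats1 had a log2FC of -0.01 (limma-adjusted p = 0.96), and Lats2 minus Lats1 shifted by 0.61, without overlap (exact permutation test, p = 0.10).

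**Figure D2:**
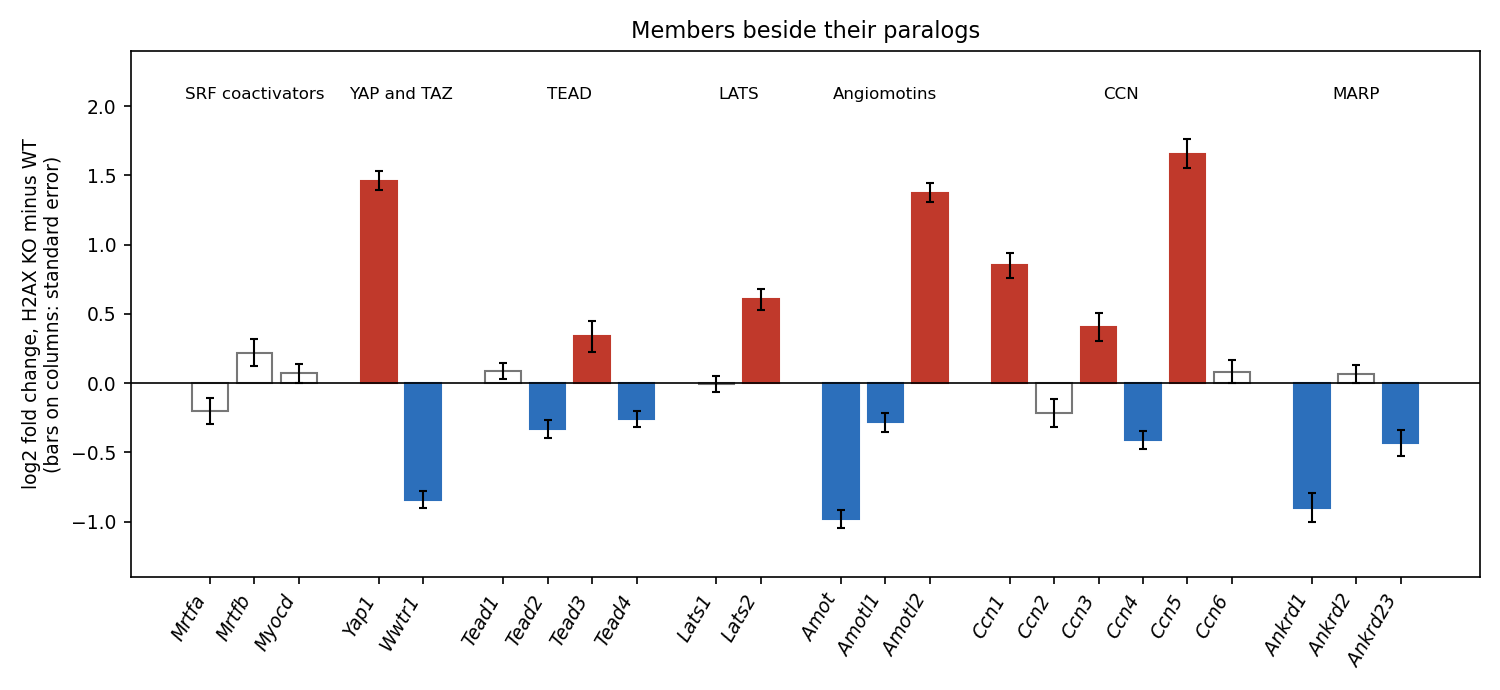
Log2FC of H2AX KO minus WT (y axis) for members and their paralogs, grouped by family, with the standard error from limma. Filled columns reached a limma-adjusted p under 0.05 (red above 0, blue below 0) and open columns did not. Yap1 (1.46) and Wwtr1 (-0.84), and Amotl2 (1.38) and Amot (-0.98), lie on opposite sides of 0.

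The targets Ccn1, Ccn2 and Ankrd1, often read as reporters of the same pathway, did not change alike. Ccn1 was higher, Ankrd1 was lower and Ccn2 did not pass the test. Ccn1, a secreted matricellular protein, had log2 values of 9.40, 9.72 and 9.65 on WT arrays and 10.39, 10.40 and 10.53 on knockout arrays. It rose from 9.59 ± 0.17 (SD, n = 3) to 10.44 ± 0.08 (SD, n = 3), a log2FC of 0.85 (SE 0.09, limma-adjusted p = 5.3e-05) and a size of 1.80-fold. Each knockout array lay above each WT array. Ankrd1, a cardiac ankyrin repeat protein that acts in the nucleus and the sarcomere, had log2 values of 9.50, 9.55 and 9.57 on WT arrays and 8.86, 8.39 and 8.68 on knockout arrays. It was lower in every knockout array, with a mean of 9.54 ± 0.04 (SD, n = 3) in WT and 8.64 ± 0.23 (SD, n = 3) in knockout cells. The log2FC was -0.90 (SE 0.11, limma-adjusted p = 0.00012). The knockout spread was the widest of any of the 10 genes in either genotype, with replicate 2 lowest.

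Ccn2, the connective tissue growth factor, had log2 values of 9.25, 9.45 and 9.22 on WT arrays and 9.27, 8.91 and 9.10 on knockout arrays. Knockout replicate 1 lay within the WT range and the others below it. The log2FC was -0.21 (95% interval -0.44 to 0.01, limma-adjusted p = 0.14), and without knockout replicate 1 it was -0.30 with an adjusted p of 0.039. Within arrays, Ccn1 minus Ccn2 shifted upward by 1.06 and Ccn1 minus Ankrd1 by 1.75 from WT to knockout, and Ccn2 minus Ankrd1 by 0.69. None of these differences overlapped between genotypes, and each had an exact permutation p of 0.10, the smallest possible.

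**Figure D3:**
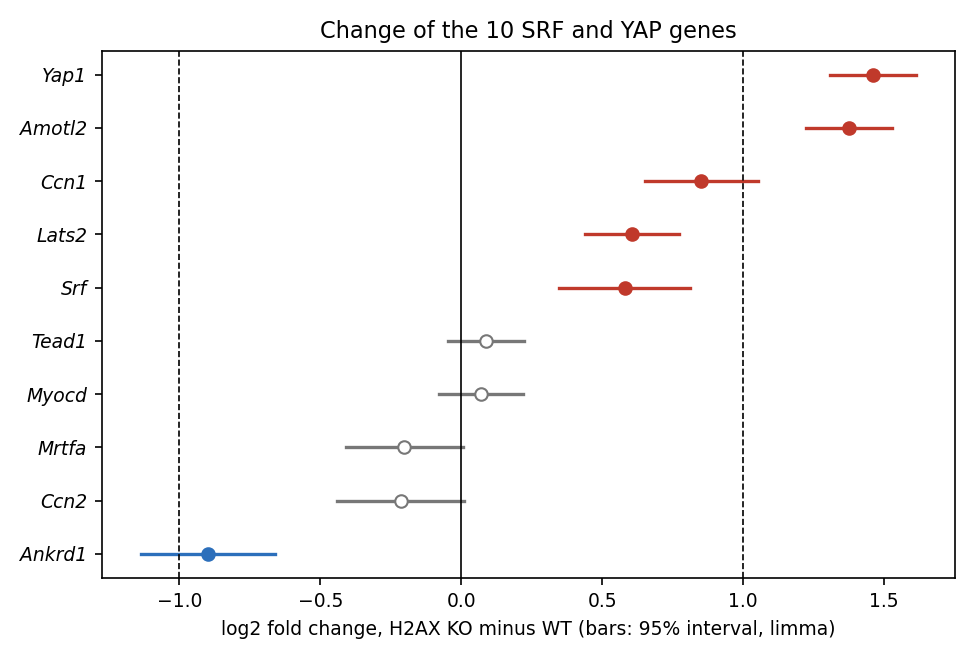
Log2FC of H2AX KO minus WT (x axis) for the 10 genes, with the 95% interval from limma. Filled points reached a limma-adjusted p under 0.05, open points did not, and dashed lines mark a fold-change of 2. Yap1 (1.46) and Amotl2 (1.38) lie beyond the upper line, and the intervals of Tead1, Myocd, Mrtfa and Ccn2 include 0.

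Promoters of Yap1, Amotl2, Ccn1 and Ankrd1 are shown because these genes moved most and each holds the letters GGAATG, the core to which TEAD factors are known to bind. The search covered both strands, so that CATTCC is the same motif read on the other strand. Each line gives the 250 bases before the start site, 5′ to 3′ on the gene's strand (RefSeq, GRCm38.p6), with matches in capitals. The windows are chr9:8004597-8004846 on the minus strand for Yap1, chr9:102717554-102717803 on the plus strand for Amotl2, chr3:145649986-145650235 on the minus strand for Ccn1 and chr19:36119845-36120094 on the minus strand for Ankrd1.
Yap1: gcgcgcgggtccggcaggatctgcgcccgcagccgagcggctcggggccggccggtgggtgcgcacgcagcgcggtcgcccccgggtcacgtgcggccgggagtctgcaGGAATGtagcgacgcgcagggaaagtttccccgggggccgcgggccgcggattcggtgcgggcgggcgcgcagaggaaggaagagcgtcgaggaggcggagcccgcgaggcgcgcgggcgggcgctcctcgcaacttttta
Amotl2: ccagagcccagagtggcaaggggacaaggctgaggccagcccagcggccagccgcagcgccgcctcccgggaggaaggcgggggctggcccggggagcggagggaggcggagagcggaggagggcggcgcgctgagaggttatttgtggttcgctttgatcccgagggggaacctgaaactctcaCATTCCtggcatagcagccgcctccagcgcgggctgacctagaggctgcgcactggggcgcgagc
Ccn1: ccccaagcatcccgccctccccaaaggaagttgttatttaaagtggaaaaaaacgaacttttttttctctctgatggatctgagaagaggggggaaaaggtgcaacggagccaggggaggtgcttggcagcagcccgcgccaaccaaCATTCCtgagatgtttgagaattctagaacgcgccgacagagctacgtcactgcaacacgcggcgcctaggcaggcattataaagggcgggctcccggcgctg
Ankrd1: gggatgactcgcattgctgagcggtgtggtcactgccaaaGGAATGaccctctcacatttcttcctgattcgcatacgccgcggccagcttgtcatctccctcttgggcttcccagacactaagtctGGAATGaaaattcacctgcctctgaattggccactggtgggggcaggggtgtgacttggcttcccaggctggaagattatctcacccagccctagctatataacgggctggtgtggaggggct
The matches begin at base -141 in Yap1, -65 in Amotl2, -103 in Ccn1, and -210 and -123 in Ankrd1. A further match in Lats2 begins at base 5 after the first of its listed start sites. In all, 5 of the 9 windows held the motif, where 14.7% of all windows did. Genes that were higher (Yap1, Amotl2, Ccn1, Lats2) and the gene that was lower (Ankrd1) both carried it, and the letters in a window are a description, not a bound site.

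**Figure D4:**
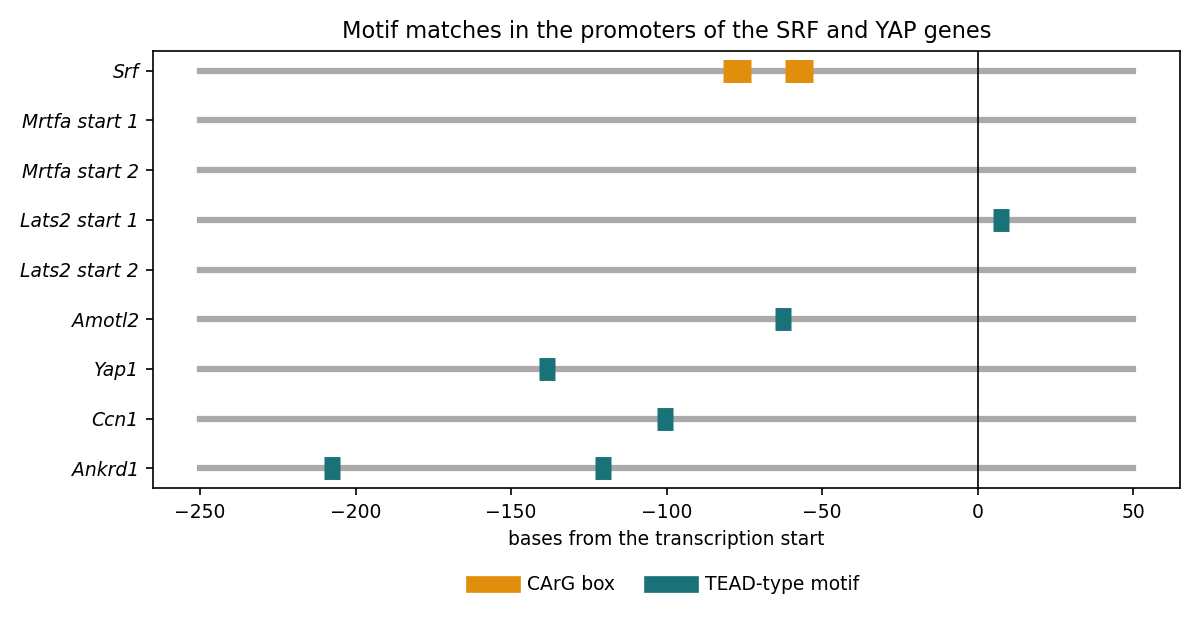
Positions of CArG boxes (orange) and of GGAATG on either strand (teal) in the 9 promoter windows of 7 genes, by distance in bases from the transcription start (x axis). The 2 CArG boxes lie in Srf, and GGAATG lies in the windows of Yap1, Amotl2, Ccn1 and Ankrd1 and after one start of Lats2.

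Of 13 measured genes transcribed under SRF with ternary complex factors, 10 rose, 2 fell and 1 missed the threshold, or 92.3% called. Beside this stand 33.4% of all genes and 53.1% of the brighter 50%, where 11 of the 13 lie. Egr1, a zinc finger factor induced by serum, rose by 1.39 on the log2 scale (SE 0.07, limma-adjusted p = 2.2e-07), from 8.04 to 9.43. Ier2 rose by 1.18 (limma-adjusted p = 1.3e-06). Egr3 and Ier3 were lower, at log2FC values of -0.47 (limma-adjusted p = 4e-04) and -0.30 (limma-adjusted p = 0.0041), and Fosb had a log2FC of -0.15 (limma-adjusted p = 0.14). Their median log2FC was 0.32. The counts were 6 higher and 2 lower without WT replicate 1 or without knockout replicate 3. The higher count was 7 without knockout replicate 1 and without moderation of the variance. It was 8 without WT replicate 2 or 3, with the replicate number as a block, over all probe sets and without the dimmest 50% of genes.

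Of 24 cytoskeletal genes transcribed under SRF with MRTF, 10 rose, 4 fell and 10 missed the threshold, and their median log2FC was 0.04. All 24 lie in the brighter 50%, and the 58.3% called is near the 53.1% called there. Their mean log2 value was 9.858 to 9.958 on WT and 10.415 to 10.437 on knockout arrays. A fold-change of 2 was passed upward by 4 of the 24 and by 2.12% of all genes. No share at this threshold was computed among the brighter 50%. The largest rises were those of Actg2, the enteric smooth muscle actin, at a log2FC of 2.77 (limma-adjusted p = 3.3e-09) and Cnn1, calponin, at 2.56 (limma-adjusted p = 3.7e-08). The decreases were small, the largest being Myh9, nonmuscle myosin, at -0.27 (limma-adjusted p = 0.0089) and Wdr1, an actin disassembly factor, at -0.24 (limma-adjusted p = 0.027). The lower count was 1 without WT replicate 2 or 3, and without knockout replicate 1 or 3. Markers of smooth muscle moved with this list, which holds 6 of the 8 markers: 5 of 8 were higher, and their mean log2 value was 7.21 to 7.32 on WT and 8.39 to 8.41 on knockout arrays. The 62.5% called stands beside 33.4% of all genes and 53.1% of the brighter 50%, where 6 of the 8 lie. Of the 8, 3 passed a fold-change of 2 upward, as did 2.12% of all genes. Myh11, the defining myosin of smooth muscle, was at 5.59 and 5.64, with a log2FC of 0.05 (limma-adjusted p = 0.67), and Des (desmin) was at 5.10 and 4.96 (limma-adjusted p = 0.27).

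Of 15 measured SRF cofactors and genes of the actin machinery that controls MRTF, 2 rose, 5 fell and 8 missed the threshold. All 15 lie in the brighter 50%, and the 46.7% called is below the 53.1% called there. The higher genes were the formin Diaph3, at a log2FC of 0.79 (limma-adjusted p = 2.6e-05), and the kinase Limk2, which inactivates cofilin, at 0.42 (limma-adjusted p = 0.00056). Limk1 was lower at -0.69 (limma-adjusted p = 0.00014) and the formin Diaph1 at -0.41 (limma-adjusted p = 0.0041). The lower count was 3 without WT replicate 2 or without knockout replicate 2, and also with the replicate number as a block, without moderation of the variance, with median centring and over all probe sets. The median log2FC was -0.06.

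Of 21 measured Hippo kinases and upstream regulators, 6 rose, 5 fell and 10 missed the threshold, with a median log2FC of -0.10. All 21 lie in the brighter 50%, and the 52.4% called is near the 53.1% called there. Fat4, an atypical cadherin, had a log2FC of 2.50 (SE 0.09, limma-adjusted p = 2.5e-08) while its ligand Dchs1 had -0.61 (limma-adjusted p = 0.00012). Ajuba, a LIM protein that binds LATS, rose by 1.28 (limma-adjusted p = 3.2e-06), and Map4k4, a kinase that activates LATS, had a log2FC of -1.02 (limma-adjusted p = 1.1e-06), the lowest of the list, followed by Amot. Of 8 measured TAZ, TEAD and VGLL genes, 2 were higher and 3 were lower, with Vgll3, a TEAD-binding cofactor, at 1.88 (limma-adjusted p = 8.6e-08). Their median log2FC was 0.02, and the 62.5% called stands beside 33.4% of all genes and 53.1% of the brighter 50%, where 6 of the 8 lie.

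Other targets of YAP did not share a direction. The published signature of YAP and TAZ targets, less the members described above, held 17 measured genes, of which 4 rose, 6 fell and 7 missed the threshold, with a median log2FC of 0.04. Ccdc80, a secreted matrix protein, had a log2FC of 3.25 (SE 0.07, limma-adjusted p = 1.2e-09) and Crim1, a transmembrane BMP-binding protein, of 0.60 (limma-adjusted p = 5.9e-05). Foxf2, a forkhead factor, was lowest at -1.35 (limma-adjusted p = 2.6e-05), and Fjx1, a Golgi kinase gene, followed at -0.90 (limma-adjusted p = 2.6e-06). The share called was 58.8%, against 53.1% among the 50% of genes with the higher mean, where 13 of the 17 lie.

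**Figure D5:**
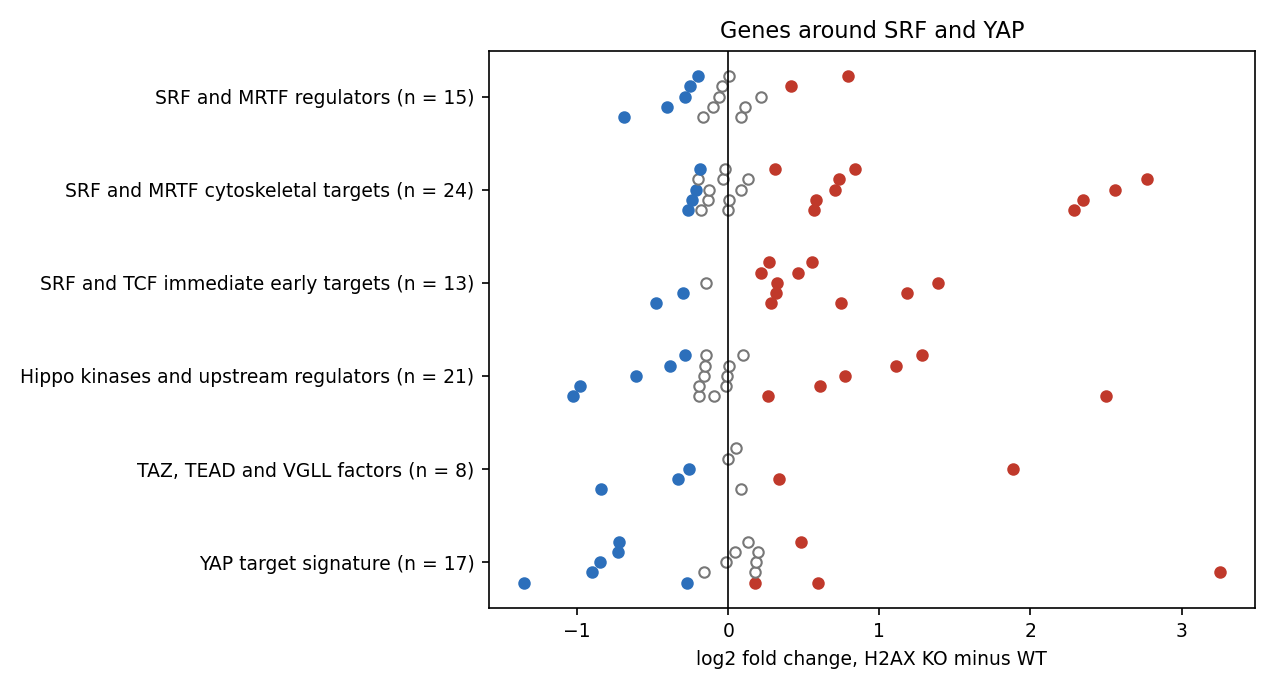
Log2FC of H2AX KO minus WT (x axis) for each measured gene of 6 lists around SRF and YAP, with 1 point per gene and the vertical offset within a list only for legibility. Filled points reached a limma-adjusted p under 0.05 (red above 0, blue below 0). Of the 13 immediate early genes 10 are red and 2 blue, whereas the 17 targets of the YAP signature lie on both sides, from -1.35 for Foxf2 to 3.25 for Ccdc80.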

How the data were processed

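RNA of 3 WT and 3 H2AX KO MEF arrays was analysed, with genotype and replicate number taken from the submitters' labels. According to the methods and processing notes, the authors used Affymetrix Expression Console for CHP files and Partek (version 6.6) for normalization. They deposited 1 log2 expression value for each of 35556 probe sets and array. How background was corrected and probes were summarized is not given in the sources used here, and normalized values cannot show whether total RNA per cell differed. The precision is limited by the number of arrays.

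Gene symbols came from GEO's annotation of Mouse Gene 1.0 ST, whose identifiers the probe sets carry (the methods name the 2.0 ST array). Of them, 21789 carried 1 symbol, 1621 carried several and were left out, and 12146 were not listed. Symbols were updated by gene identifier through RefSeq (GRCm38.p6), which matched 21698. The probe set with the highest mean represented a gene, which gave 19938 genes. Of the listed names around SRF and YAP, Rock2, Actg1, Ddx19a, Stk3 and Fbn1 lacked such a probe set and are not analysed here.

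Genotypes were compared with limma (version 3.58.1, R version 4.3.3), with lmFit and eBayes on genotype alone. P-values were adjusted by Benjamini-Hochberg over the 19938 genes, and genes were called under 0.05. The fit was tested on simulated data. Intervals are 95% intervals from the same fit. Differences between 2 genes within an array were tested with an exact permutation test over arrays. Named genes were the 10 members, H2ax, close paralogs, the genes closest in profile to Yap1, and the 2 largest rises and 2 largest falls called in each list. Of the last, the report names those that illustrate a group. Eif2s3y, Vim, Fosb, Dchs1, Myh11 and Des were named in addition. Members and lists were chosen with earlier results of these data known. Promoters were searched for the CArG box (CC, then 6 letters A or T, then GG) and for GGAATG on both strands.

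Replicate numbers did not pair the arrays: deviations from the genotype means correlated at -0.29, -0.24 and 0.08 for arrays of the same number. For arrays of different numbers these correlations ran from -0.165 to 0.32. No 2 arrays shared more than 0.096% of their values. The alternatives were the replicate block, leaving out each array, the methods' analysis of variance, which moderates no variance, a trended and robust variance prior, quantile normalization, median centring, a filter that drops the dimmest 50% of genes, averaged probe sets per gene, a fit on every probe set, and a fold-change over 2.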

Additional observations from a re-analysis of the deposited data

How the results depend on the processing

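The log2FC values of the 10 genes kept their direction, and their 6 calls were kept, in every alternative run except the fold-change threshold, under which Srf, Lats2, Ccn1 and Ankrd1 lost theirs. In the analysis of variance without moderation the call of Srf was at the threshold, with an adjusted p of 0.05 after rounding. Myocd lay among the 50% of genes with the lowest mean and has no value without them. Of the uncalled genes, Mrtfa passed the test without knockout replicate 2 and Ccn2 without knockout replicate 1, and over the 6 fits that left out an array their log2FC values lay between -0.30 and -0.11 and between -0.30 and -0.12. The number of members called lower was 1 to 2 in these fits. With a fold-change over 2, 2 members were higher and 0 lower. The same threshold left 0 higher and 0 lower SRF and MRTF regulators, 4 and 0 cytoskeletal targets, 2 and 0 immediate early genes, 3 and 1 Hippo genes, 1 and 0 TAZ, TEAD and VGLL genes, and 1 and 1 genes of the YAP signature. These lists held 15, 24, 13, 21, 8 and 17 measured genes, in that order. Of all genes, 2.12% passed the threshold upward and 3.18% downward. Leaving out an array gave 3 to 4 lower SRF and MRTF regulators, 1 to 6 lower cytoskeletal targets, 6 to 9 higher immediate early genes and 1 to 2 higher TAZ, TEAD and VGLL genes. With the replicate number as a block, 3 SRF and MRTF regulators and 1 cytoskeletal target were lower, and no call of a member changed. Median centring gave the same counts of 3 and 1. The test without moderation of the variance and the fit over all probe sets each gave 3 lower regulators, 2 lower cytoskeletal targets and 1 higher TAZ, TEAD and VGLL gene, and quantile normalization gave 1 of the last. The gene lost there was Tead3. The cause of these shifts was not tested. Median centring moved the median log2FC of all genes from 0.02 to 0.06, so no scaling moved it by more than 0.1.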

Other observations

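The relatives of the targets were measured on the same arrays. Of the other CCN genes, Ccn5 (Wisp2), a growth-arrest member of the family, rose in knockout cells, by a log2FC of 1.66 (SE 0.10, limma-adjusted p = 1.2e-06), and Ccn3 (Nov) was higher by 0.40 (limma-adjusted p = 0.010). Ccn4 (Wisp1) had a log2FC of -0.41 (limma-adjusted p = 0.00077), and Ccn6 (Wisp3) of 0.08 (limma-adjusted p = 0.53). Of the other muscle ankyrin repeat genes, Ankrd23 was lower, as Ankrd1 was, at -0.43 (limma-adjusted p = 0.0051), and Ankrd2 had a log2FC of 0.07 (limma-adjusted p = 0.49).

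The genes whose profile over the 6 arrays lay closest to that of Yap1 were Rangrf, Suox and Nid2. Their values, each centred on its own mean, differed from those of Yap1 by 0.010, 0.024 and 0.032 on average on the log2 scale. Most of such a profile is the difference between genotypes, so the likeness is one of the size of that difference.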
